A study of Mus musculus with 30 samples.

Results

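Extracellular nucleotides reach dendritic cells through P2 receptors, and 9 genes of this family by name make up the set described here. They are the P2X channels *P2rx4*, *P2rx5* and *P2rx7* and the P2Y receptors *P2ry1*, *P2ry2*, *P2ry6*, *P2ry10*, *P2ry13* and *P2ry14*. They were taken by name from a count table of 43629 genes through their Ensembl identifiers, and each matched 1 row. All 9 passed the filter on low counts in each comparison. The table held 30 libraries of bone marrow-derived dendritic cells (BMDCs), bone marrow cells grown for 6 days with the growth factor GM-CSF, from adult mice of both sexes. WT BMDCs came from C57BL/6J mice and BMDCs labelled *Cacnb3*-/-, a deletion in the gene of a voltage-gated calcium channel β subunit, from C57BL/6N mice, so that genotype and substrain cannot be told apart. Each genotype had 5 cultures, and each culture number carried 3 libraries, named ctrl, 0p5h and 24h. The ATP pulse was 500 µM for 30 min, and cells were taken early, set 0p5h, or at 24 h. For the early set the sources differ, the labels placing the harvest directly after the pulse and the study's text 30 min after it. The labels' treatment field conflicts with these names, since it gives ATP for ctrl and vehicle for 0p5h. The names were used to group the libraries. In WT, *Fos*, *Fosb* and *Nr4a1*, immediate early genes, were higher in 0p5h than in ctrl at log2 fold changes of 3.24, 5.73 and 4.31 (adjusted p = 0.0194, 0.00456 and 0.000926 from edgeR). In cultures labelled *Cacnb3*-/- the log2 fold changes were 2.86, 5.18 and 4.57 (adjusted p = 0.000367, 0.00164 and 0.0011), and the remaining such gene on the list, *Egr1*, was higher by 2.36 there (adjusted p = 0.0349) and by 1.22 in WT (adjusted p = 0.332, and 0.0267 with the culture number as a block).

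P2X receptors are trimeric channels that ATP opens to cations, calcium among them. P2Y receptors are coupled to G proteins: *P2ry1*, *P2ry2* and *P2ry6* act mainly through Gq, phospholipase C and IP3 to release calcium from the endoplasmic reticulum, and *P2ry13* and *P2ry14* mainly through Gi. Dendritic cells use them to sense nucleotides set free by damaged cells, in calcium signalling, migration and inflammasome activation.

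Counts on the 9 receptors were scaled to a library size adjusted by each library's TMM factor from edgeR, not to the raw library total. These values are called CPM and serve to compare a gene across libraries. CPM per kilobase of exon (CPM per kb) serves for levels between genes. Library totals ran from 8237393 to 32164225 counts, and the shallowest library, 24h of the culture labelled *Cacnb3*-/- p974s843, held at least 11 reads on each of the 9 receptors. *Cacnb3* itself had counts in each library, also in those labelled *Cacnb3*-/-, the fewest being 4307. Its level was 1260 ± 112 CPM in WT ctrl and 1028 ± 196 CPM in ctrl labelled *Cacnb3*-/- (SD, n = 5). The log2 difference from WT was -0.27 in ctrl, -0.34 in 0p5h and -0.77 in 24h (adjusted p = 0.383, 0.367 and 0.0518 from edgeR). Counts over the whole gene do not show which exons were read, so they neither bear out nor contradict the label. The genotype is given as labelled throughout. Which exons the allele lacks is not given in the sources used here. All 8 dendritic cell markers had medians of 1 CPM or more in each group, and their summed level was 13615 to 35717 CPM. The 9 macrophage and monocyte markers summed to 711 to 4368 CPM and the 10 neutrophil markers, with *Elane* and *Mpo* under 1 CPM, to 141 to 719 CPM, whereas all 8 markers of T, NK and B cells had medians under 1 CPM. *Fcer1a* and *Mcpt8* of 5 mast cell and basophil markers, *Epx* and *Il5ra* of 4 eosinophil markers and *Gp1bb* and *Gp9* of 4 platelet markers were under 1 CPM as well. In these bulk samples, fewer cells of a type and less RNA per cell cannot be told apart.

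P2 receptor transcripts in BMDCs were dominated by *P2ry10* and *P2rx4*. In WT ctrl libraries *P2ry10* stood at 73.0 ± 11.4 CPM per kb and *P2rx4* at 58.6 ± 5.92 CPM per kb (SD, n = 5), and the 5 values of one overlapped those of the other. *P2rx5* with 26.96 ± 5.91 and *P2ry14* with 24.8 ± 4.34 CPM per kb came next, below each *P2rx4* value and overlapping each other. *P2ry6* followed with 7.90 ± 6.49 CPM per kb. The low end held *P2rx7* with 2.31 ± 1.67, *P2ry1* with 1.49 ± 0.251, *P2ry13* with 1.15 ± 0.387 and *P2ry2* with 0.838 ± 0.318 CPM per kb, each overlapping its neighbour in the order. Ctrl libraries labelled *Cacnb3*-/- had the same order, from 74.8 ± 29.9 for *P2ry10* and 49.7 ± 12.2 for *P2rx4* to 0.885 ± 0.375 CPM per kb for *P2ry2*, and there *P2ry6* lay above *P2rx7* without overlap. Across all 30 libraries *P2ry10* was the most abundant receptor in 26 and *P2rx4* in 4.

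In WT the joint share of the leading receptors moved little between sets. The share of *P2ry14* was 12.5 ± 1.47% in ctrl, 12.3 ± 2.81% in 0p5h and 8.51 ± 2.41% in 24h (SD, n = 5). *P2ry10* and *P2rx4* together held 66.8 ± 3.62% of the summed CPM per kb of the 9 receptors in ctrl, 70.0 ± 1.69% in 0p5h and 70.2 ± 1.87% in 24h (SD, n = 5). The 3 P2X channels held 44.6 ± 2.73%, 42.6 ± 1.41% and 46.1 ± 6.59%, with 1 library at 57.3%, 24h of culture p974s856, where *P2rx4* was the most abundant receptor. In cultures labelled *Cacnb3*-/- the P2X share was 42.6 ± 7.72% in ctrl, 41.0 ± 7.84% in 0p5h and 31.5 ± 8.59% in 24h. It was lower in 24h than in ctrl in 5 of 5 of these cultures, by 2.66 to 19.5 percentage points, and the ranges of the groups overlapped. The summed level of the 9 was 187 ± 17.4 CPM per kb in ctrl and 244 ± 23.2 in 24h there, against 197 ± 15.3 and 203 ± 17.7 in WT. These shares are given as a description without a test and carry no adjustment for GC content, in which *P2ry10* is the lowest of the 9. *P2ry10*, known as a receptor for lysophosphatidylserine rather than a nucleotide, held 39.4 ± 12.1% in ctrl and 52.9 ± 12.2% in 24h labelled *Cacnb3*-/-. The shares are therefore not shares among nucleotide receptors alone.

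**Figure D1:**
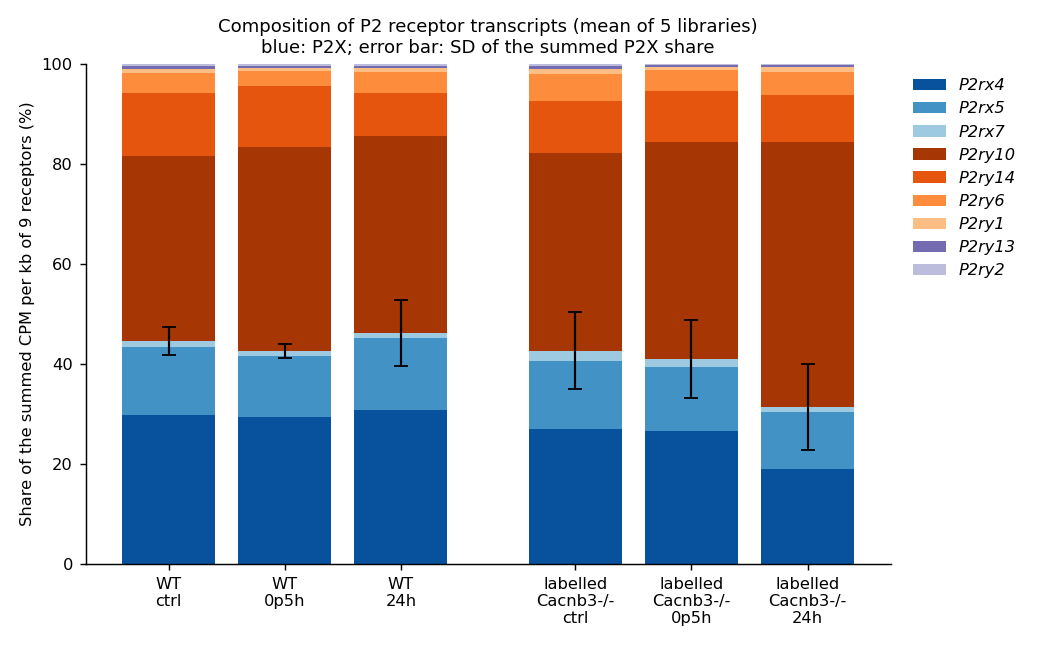
Stacked bars give the mean share (%) of each receptor in the summed CPM per kb of the 9 receptors for 6 groups of 5 libraries, P2X channels in blue, with error bars for the SD of the summed P2X share. *P2ry10* and *P2rx4* together hold 66.4 to 71.9% in each group, and the P2X share is lowest, at 31.5%, in the 24h libraries labelled *Cacnb3*-/-.

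Most of the 9 genes lie near another receptor gene (build GRCm38). *P2rx7* (ENSMUSG00000029468, chr5:122643911-122691432) and *P2rx4* (ENSMUSG00000029470, chr5:122707584-122729738) are neighbours, as are *P2ry6* (ENSMUSG00000048779, chr7:100937638-100964391) and *P2ry2* (ENSMUSG00000032860, chr7:100996572-101011991). *P2ry14* (ENSMUSG00000036381, chr3:59114626-59130624), *P2ry13* (ENSMUSG00000036362, chr3:59207896-59210882) and *P2ry1* (ENSMUSG00000027765, chr3:61002795-61008982) share chromosome 3, the former pair on the minus strand within the span of *Med12l* and with no exon base in common with it. *P2rx5* (ENSMUSG00000005950) is at chr11:73160421-73172685 and *P2ry10* (ENSMUSG00000050921) at chrX:107088492-107104974. Of the exon bases of *P2ry1*, 23.1% are shared with the antisense gene *Gm37035*, and the counting used no strand, so reads of the pair cannot be told apart there.

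RefSeq promoter windows of the counts' build, 250 bases before to 50 after a gene start, were found for 7 of the 9 receptors. The windows nearest to the table's gene start are shown for the 4 receptors that passed the test within cultures in at least 1 comparison below and had a window. Capitals mark matches on either strand to the AP-1 site TGANTCA, the CRE TGACGTCA, the NR4A response element AAAGGTCA or the PU.1 core GAGGAAG, the first 3 being motifs bound by products of immediate early genes or their CREB activators and the last by a myeloid lineage factor.
*P2ry1*, chr3:61002535-61002834, plus strand: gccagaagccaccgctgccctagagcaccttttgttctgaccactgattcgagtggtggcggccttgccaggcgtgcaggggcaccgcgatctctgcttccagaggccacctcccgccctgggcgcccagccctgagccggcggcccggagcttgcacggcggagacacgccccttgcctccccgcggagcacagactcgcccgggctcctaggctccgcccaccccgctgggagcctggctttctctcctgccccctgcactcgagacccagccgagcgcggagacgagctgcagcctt
*P2ry13*, chr3:59210833-59211132, minus strand: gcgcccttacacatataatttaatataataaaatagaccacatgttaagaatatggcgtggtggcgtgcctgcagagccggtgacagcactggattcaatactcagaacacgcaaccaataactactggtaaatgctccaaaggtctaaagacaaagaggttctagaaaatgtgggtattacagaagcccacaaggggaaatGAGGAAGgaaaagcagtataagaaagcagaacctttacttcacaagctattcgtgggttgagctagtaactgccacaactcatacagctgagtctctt
*P2ry14*, chr3:59130713-59131012, minus strand: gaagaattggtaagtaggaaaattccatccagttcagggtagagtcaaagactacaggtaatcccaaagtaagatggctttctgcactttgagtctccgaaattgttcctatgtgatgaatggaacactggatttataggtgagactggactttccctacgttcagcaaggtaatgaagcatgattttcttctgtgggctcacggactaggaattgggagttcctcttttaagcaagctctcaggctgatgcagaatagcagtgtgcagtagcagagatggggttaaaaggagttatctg
*P2ry10*, chrX:107088242-107088541, plus strand: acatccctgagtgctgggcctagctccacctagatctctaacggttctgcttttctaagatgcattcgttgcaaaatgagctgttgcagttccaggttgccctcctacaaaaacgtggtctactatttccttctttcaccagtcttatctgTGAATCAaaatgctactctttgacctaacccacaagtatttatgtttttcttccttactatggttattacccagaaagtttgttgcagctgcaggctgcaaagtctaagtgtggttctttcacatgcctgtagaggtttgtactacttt
The *P2ry13* window held 1 PU.1 core and the *P2ry10* window 1 AP-1 match, and the other windows shown held none of the 4 motifs. Windows farther from the gene start are not shown. For *P2ry14*, chr3:59153443-59153742 held 1 AP-1 match and 1 PU.1 core. Its window chr3:59131279-59131578 held 1 AP-1 match and 1 NR4A element, and chr3:59131069-59131368 held none. For *P2ry10*, chrX:107089083-107089382 held 1 PU.1 core. Among all 32851 windows of this length, 13.6% held the PU.1 core, 7.81% the AP-1 site, 1.79% the CRE and 1.51% the NR4A element. The *P2ry1* window shown was 70.7% G or C and the other 3 shown were 42.3 to 43.3%. These letters are a description of the windows and no evidence of binding.

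To see how the receptors differed between sets, each set was compared with each other set within a genotype. Each culture had 1 ctrl library and no further vehicle library for 24h. ATP and time in culture therefore cannot be told apart in changes to 24h. By the threshold of an adjusted p under 0.05 and at least a 2-fold change (edgeR quasi-likelihood test, Benjamini-Hochberg over all genes tested), 0 of 9 receptors were called in any comparison. Of all genes tested, 0.176% were called from ctrl to 0p5h, 0.0152% from ctrl to 24h and 0.639% from 0p5h to 24h in WT, and 0.29%, 0% and 0.66% in cultures labelled *Cacnb3*-/-. At an unadjusted p under 0.05 there were 2, 1 and 2 receptors in WT, where 4.54%, 8.39% and 11.2% of all genes passed, and 1, 1 and 2 in cultures labelled *Cacnb3*-/-, where 3.99%, 10.8% and 17.5% did. DESeq2 and limma-voom at the adjusted and fold thresholds also called 0 receptors. In edgeR without the block the lowest adjusted p of these comparisons was 0.078, for *P2ry1* from 0p5h to 24h in cultures labelled *Cacnb3*-/-. Libraries of 1 culture number deviated together. With the culture number as a block and no fold minimum, the share of all genes that passed was 5.96% from ctrl to 0p5h, 6.05% from ctrl to 24h and 11.3% from 0p5h to 24h in WT, and 2.35%, 8.54% and 28.6% in cultures labelled *Cacnb3*-/-. Removing each library's trend with gene GC content as well gave 6.7%, 9.41% and 15.7% in WT and 3.42%, 4.76% and 24.1% in the other genotype. Receptors that passed with the block numbered 1, 1 and 2 of 9 in WT, and 0 and 4 of 9 from ctrl to 0p5h and from 0p5h to 24h in cultures labelled *Cacnb3*-/-, and counts this small are not set apart from the shares of all genes. From ctrl to 24h in the latter 1 pair of libraries did not deviate together, and the blocked values stand in the closing section.

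**Figure D2:**
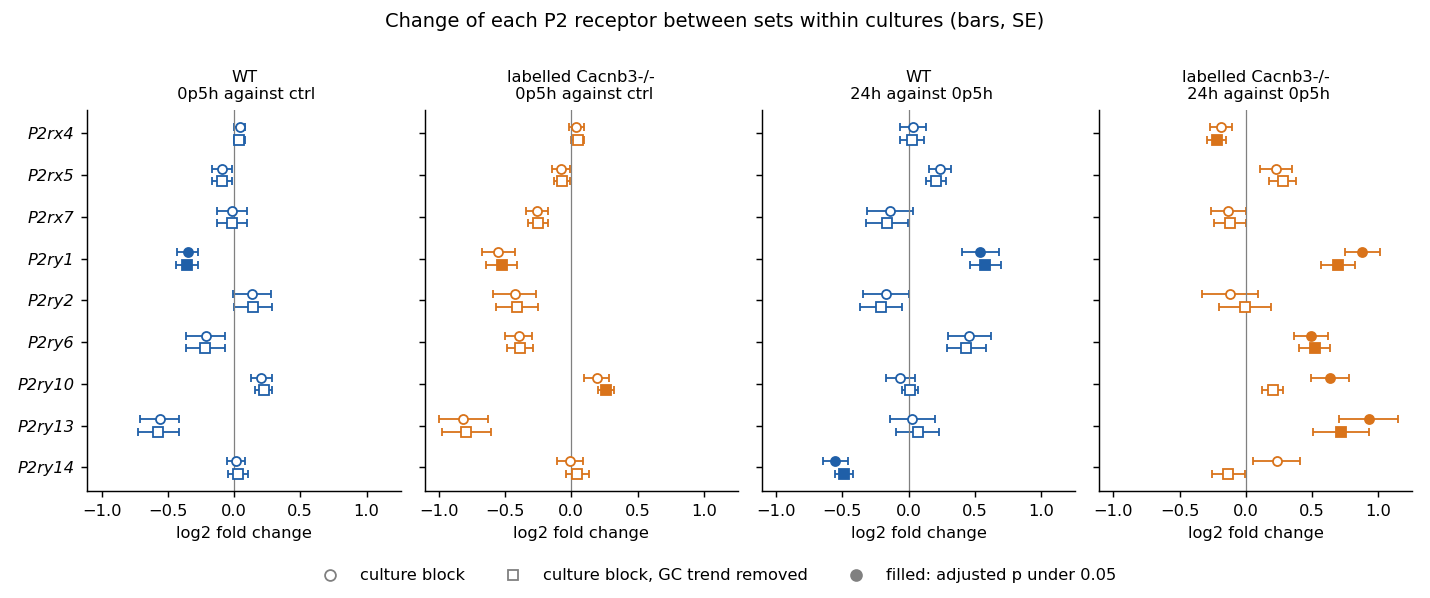
Points give the log2 fold change of each receptor between sets with the culture number as a block, circles without and squares with the GC trend of each library removed; bars are SE, filled points have an adjusted p under 0.05, and 5 cultures enter each panel. *P2ry1* lies below 0 from ctrl to 0p5h and above 0 from 0p5h to 24h in both genotypes, and *P2ry14* lies below 0 from 0p5h to 24h in WT.

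*P2ry1*, the ADP receptor that couples to Gq, was lower in the library named 0p5h than in ctrl in all 10 cultures. In WT cultures p974s846, p974s850, p974s855, p974s856 and p974s864 it stood at 5.74, 6.17, 7.22, 5.14 and 7.78 CPM in ctrl, at 4.77, 4.85, 5.51, 3.95 and 5.87 CPM in 0p5h and at 6.91, 8.96, 7.58, 3.75 and 9.82 CPM in 24h. Each culture was lower in 0p5h than in ctrl, and 4 of 5 were higher in 24h than in 0p5h, culture p974s856 being the exception, while the ranges of the sets overlapped. The fall to 0p5h was 0.35 on the log2 scale (fold change -0.35, SE 0.08, adjusted p = 0.03 from edgeR with the block) and the rise from 0p5h to 24h 0.54 (SE 0.14, adjusted p = 0.0394). Without the block neither passed (adjusted p = 0.372 for the rise). With any 1 culture left out the fall no longer passed, and the rise passed only without culture p974s856, at 0.65 (adjusted p = 0.00844), against at most 0.135 without each of the others.

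In cultures labelled *Cacnb3*-/- the rise of *P2ry1* to 24h was the change of the lowest adjusted p among the 9 receptors. Cultures p974s843, p974s851, p974s852, p974s853 and p974s865 stood at 4.32, 6.98, 11.5, 8.73 and 6.98 CPM in ctrl, at 3.84, 5.26, 7.22, 5.87 and 3.94 CPM in 0p5h and at 8.25, 9.82, 10.9, 9.72 and 8.17 CPM in 24h. All 5 values of 24h lay above all 5 of 0p5h, and each culture was lower in 0p5h than in ctrl. The rise from 0p5h to 24h was 0.88 on the log2 scale (SE 0.13, adjusted p = 0.00117 from edgeR with the block), it passed with each culture left out in turn, at 0.82 to 0.95, and with the GC trend removed at 0.69 (adjusted p = 0.00354). The difference from ctrl to 0p5h, -0.55 (SE 0.12), had an adjusted p of 0.0525, of 0.0414 with the GC trend removed and of 0.00263 without culture p974s843. Of all genes, 9.43% passed in that last fit, against 2.35% with all cultures. Without each other culture the difference did not pass (largest adjusted p = 0.298 from edgeR with the block). Summed macrophage and monocyte markers moved the other way, from 834 to 4368 CPM in 0p5h to 711 to 1860 CPM in 24h, 3 of the 9 markers falling and 1 rising with the block. Over the 30 libraries *P2ry1* went against this sum at r = -0.79 and against the summed dendritic cell markers at r = -0.61. The part of these markers in the *P2ry1* values was not tested.

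*P2ry13*, a further ADP receptor but coupled to Gi, was one of the lowest of the 9, with 11 to 105 reads per library. Ctrl libraries held 2.28, 4.07, 2.15, 2.18 and 3.89 CPM in WT and 1.93, 3.24, 2.20, 1.73 and 3.21 CPM in cultures labelled *Cacnb3*-/-, in the order of cultures above. The 0p5h libraries held 1.75, 2.04, 1.89, 1.53 and 2.36 CPM in WT and 1.45, 1.90, 0.968, 1.26 and 1.40 CPM in the other genotype. All 10 cultures were lower in 0p5h than in ctrl. The log2 fold changes, -0.56 (SE 0.15) in WT and -0.81 (SE 0.19) in cultures labelled *Cacnb3*-/-, nevertheless missed the threshold, with adjusted p = 0.0511 and 0.0576 from edgeR with the block. Without culture p974s843 the latter was 0.00948, in a fit where 9.43% of all genes passed. Without each other culture it was not under the threshold, at up to 0.327. In 24h WT cultures stood at 1.51, 2.78, 2.13, 1.33 and 2.07 CPM, a log2 difference from 0p5h of 0.03 (SE 0.17), whereas cultures labelled *Cacnb3*-/- stood at 1.46, 4.26, 1.58, 3.44 and 2.52 CPM. The latter rise of 0.93 (SE 0.22) had an adjusted p of 0.0119 from edgeR with the block, 0.0301 with the GC trend removed and 0.0786 without culture p974s851. Without culture p974s843 it was 1.08 (adjusted p = 0.0117), past 2-fold. The difference between the genotypes is given with the interactions.

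**Figure D3:**
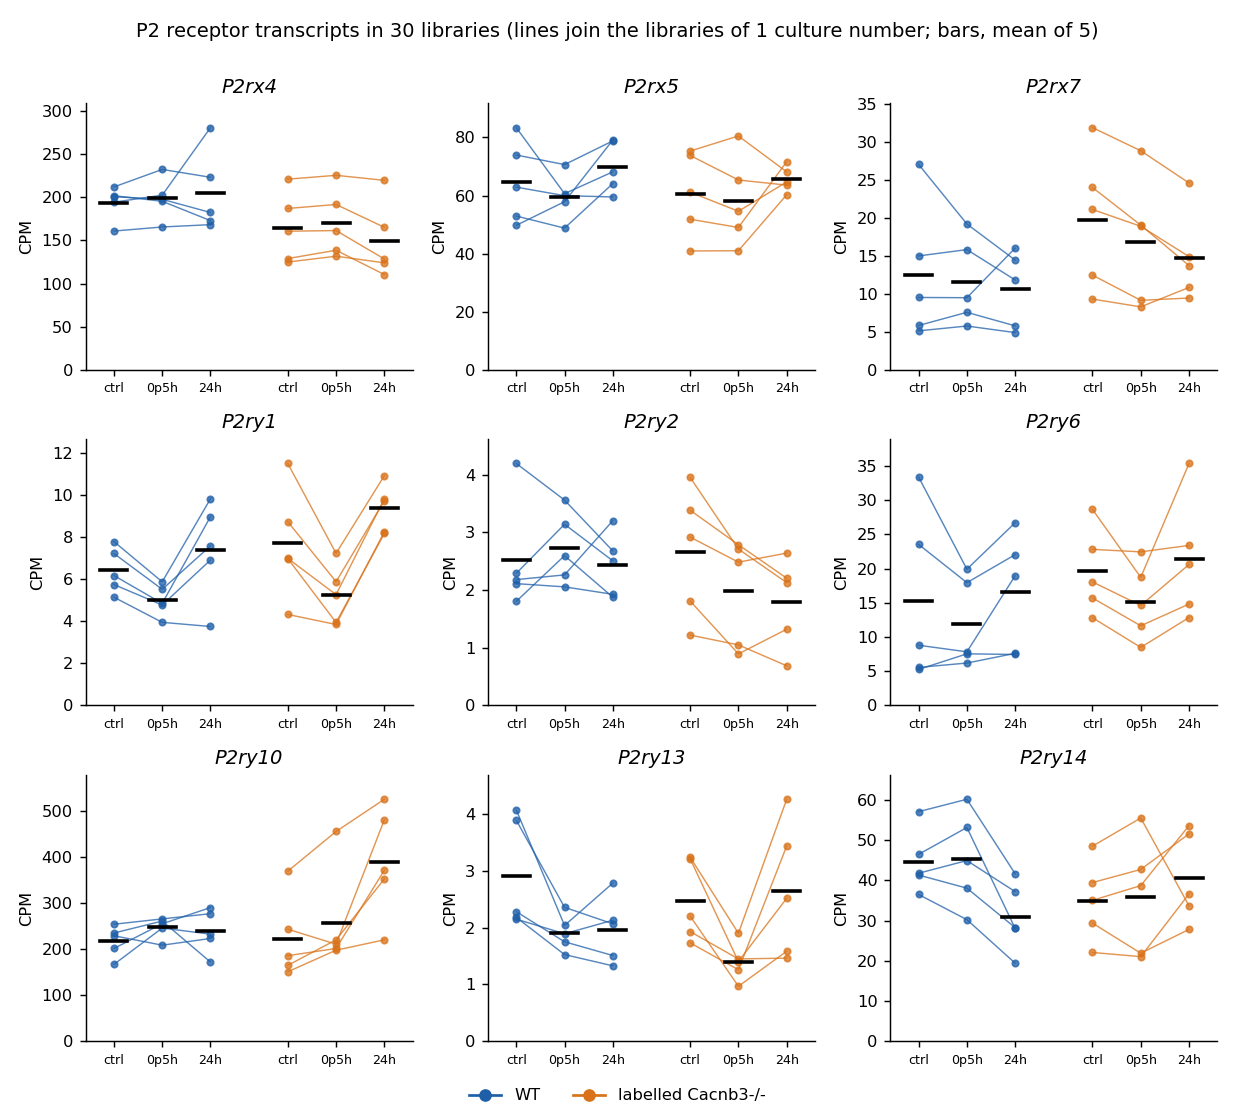
Each panel plots 1 receptor in CPM for the sets ctrl, 0p5h and 24h, WT in blue and cultures labelled *Cacnb3*-/- in orange; a point is a library, lines join libraries of 1 culture number, and black bars are means of 5. *P2ry1* and *P2ry13* are lower in 0p5h than in ctrl in each culture, and *P2ry14* is lower in 24h than in 0p5h in each WT culture.

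*P2ry14*, the Gi-coupled receptor for UDP-glucose and related UDP-sugars, fell to 24h in WT. WT cultures stood at 41.8, 41.3, 57.1, 46.5 and 36.5 CPM in ctrl, at 44.9, 38.1, 60.1, 53.1 and 30.2 CPM in 0p5h and at 37.2, 28.2, 41.6, 28.04 and 19.4 CPM in 24h. Each of the 5 was lowest in 24h, although the ranges of the sets overlapped. With the block the fold change on the log2 scale was -0.55 (SE 0.11, adjusted p = 0.0212) from ctrl to 24h and -0.55 (SE 0.09, adjusted p = 0.00647) from 0p5h to 24h, and with the GC trend removed -0.46 and -0.49 (adjusted p = 0.0405 and 0.00187). The step from 0p5h to 24h passed with each culture left out, at -0.63 to -0.46, and that from ctrl to 24h did not pass without culture p974s855 or p974s864 (largest adjusted p = 0.0591). Summed macrophage and monocyte markers were also lower in 24h than in 0p5h in each WT culture, 869 to 2058 CPM against 1668 to 3395 CPM, and went with *P2ry14* at r = 0.57 over the 30 libraries. Of these markers only *Cd14* passed from 0p5h to 24h in WT with the block, at -2.71 on the log2 scale. *Cd14* had also risen from ctrl to 0p5h in WT with the block. How far *Cd14* alone lowered the sum was not tested, nor was the part of these markers in the *P2ry14* values. Cultures labelled *Cacnb3*-/- stood at 35.02, 39.4, 29.4, 22.1 and 48.5 CPM in ctrl, at 38.7, 42.7, 21.9, 21.03 and 55.5 CPM in 0p5h and at 53.6, 51.6, 27.8, 36.6 and 33.7 CPM in 24h. Here 4 of 5 cultures were higher in 24h than in 0p5h and culture p974s865 was lower, for a log2 difference of 0.23 (SE 0.18, adjusted p = 0.328). Its sign turned with the GC trend removed, to -0.13, and without culture p974s865 it was 0.47 (adjusted p = 0.00264), in a fit where 40.7% of all genes passed. Without each other culture the difference did not pass (adjusted p up to 0.734).

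*P2ry10*, named for its sequence in the P2Y family and known as a receptor for lysophosphatidylserine rather than a nucleotide, rose from 0p5h to 24h in cultures labelled *Cacnb3*-/-. It stood there at 165, 186, 369.7, 244 and 151 CPM in ctrl, at 220.5, 202, 456, 211 and 198 CPM in 0p5h and at 353, 372, 526, 482 and 220.5 CPM in 24h. Each culture was highest in 24h, with culture p974s852 highest of the 5 in each set and culture p974s865 lowest. The rise from 0p5h to 24h was 0.63 on the log2 scale (SE 0.14, adjusted p = 0.00923 from edgeR with the block). *P2ry10* has the lowest GC content of the 9, 37.3%, and with the GC trend of each library removed the rise was 0.20 (SE 0.08, adjusted p = 0.0803). Without culture p974s851 the adjusted p was 0.056, and without each of the others, p974s852 included, the rise passed in the blocked fit. Over the 30 libraries *P2ry10* went against the summed macrophage and monocyte markers (r = -0.66) and dendritic cell markers (r = -0.59). In these cultures the medians of these sums were 2736 and 25522 CPM in 0p5h and 1363 and 15746 CPM in 24h. Single markers of both moved both ways with the block, and their part in the *P2ry10* values was not tested. From ctrl to 0p5h the difference was 0.19 (SE 0.09, adjusted p = 0.374 with the block), and 0.26 (adjusted p = 0.0464) with the GC trend removed. From ctrl to 24h the log2 difference was 0.81 (SE 0.28, adjusted p = 0.444 without the block). In WT the values were 229, 202, 254, 235 and 167 CPM in ctrl, 209, 255, 266, 261 and 246 CPM in 0p5h and 223, 291, 277, 172 and 233 CPM in 24h. The log2 difference from 0p5h to 24h in WT was -0.06 (SE 0.11, adjusted p = 0.75), with 3 of 5 cultures higher. *P2ry10b*, the neighbouring paralog on the list of other P2 receptors, stood at 2.11 to 22.4 CPM, and reads that fit both could not be followed here.

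*P2ry6*, the UDP receptor that couples to Gq, differed more between cultures than between sets. The other receptors did so as well in both genotypes, and culture means rest on 3 libraries each but set means on 5. Among WT cultures its mean over the 3 sets ran from 6.46 CPM in culture p974s855 to 26.7 CPM in culture p974s864, a 4.13-fold range, whereas set means differed 1.39-fold. Cultures labelled *Cacnb3*-/- had 18.1, 22.8, 12.8, 15.7 and 28.7 CPM in ctrl, 14.6, 22.5, 8.49, 11.6 and 18.7 CPM in 0p5h and 20.6, 23.4, 12.9, 14.8 and 35.4 CPM in 24h. Each was lowest in 0p5h. From ctrl to 0p5h the log2 difference was -0.40 (SE 0.10, adjusted p = 0.0907 from edgeR with the block). It passed without culture p974s843 (adjusted p = 0.0179), in a fit where 9.43% of all genes passed. Without each other culture it did not pass (adjusted p up to 0.422). From 0p5h to 24h the rise was 0.49 on the log2 scale (SE 0.13, adjusted p = 0.0167 from edgeR with the block; 0.00926 with the GC trend removed), and without culture p974s843 the adjusted p was 0.0585. In WT the same difference was 0.46 (SE 0.16, adjusted p = 0.0994).

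*P2rx7*, the channel that ATP at high concentration opens and that leads to inflammasome activation, also differed more between cultures than between sets. WT cultures p974s846, p974s850, p974s855, p974s856 and p974s864 stood at 5.81, 14.97, 5.10, 9.502 and 27.03 CPM in ctrl, at 7.55, 15.8, 5.74, 9.47 and 19.2 CPM in 0p5h and at 5.76, 11.8, 4.88, 16.01 and 14.4 CPM in 24h. The means of WT cultures spanned 3.86-fold and those of WT sets 1.18-fold. Cultures labelled *Cacnb3*-/- stood at 24.0, 21.1, 9.29, 12.4 and 31.9 CPM in ctrl, at 19.03, 18.9, 8.26, 9.13 and 28.8 CPM in 0p5h and at 13.7, 14.9, 10.8, 9.43 and 24.6 CPM in 24h. No comparison of sets passed for *P2rx7*, the largest log2 difference being -0.42 (SE 0.34, adjusted p = 0.533 from edgeR) from ctrl to 24h in the latter. With the block and without culture p974s856, the difference from 0p5h to 24h in WT did pass (adjusted p = 0.026). Without each other culture it did not (adjusted p up to 0.870). Cultures high in *P2rx7* were high in *P2ry6*: over the 10 culture means the Pearson r of log2 CPM was 0.95 and Spearman rho 0.93, and r was 0.93 without the 2 cultures farthest from the *P2rx7* median. Over 15 libraries each, r was 0.92 in WT and 0.78 in cultures labelled *Cacnb3*-/-. Of all pairs of the 9 receptors this one had the highest r over libraries. The pair was chosen after the values were seen, and has no test. Over the 30 libraries summed neutrophil markers went with *P2ry6* at r = 0.72 and with *P2rx7* at 0.45. For summed platelet markers r was 0.58 and 0.60, and for summed macrophage and monocyte markers 0.19 and 0.51. The part of these markers was not tested.

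**Figure D4:**
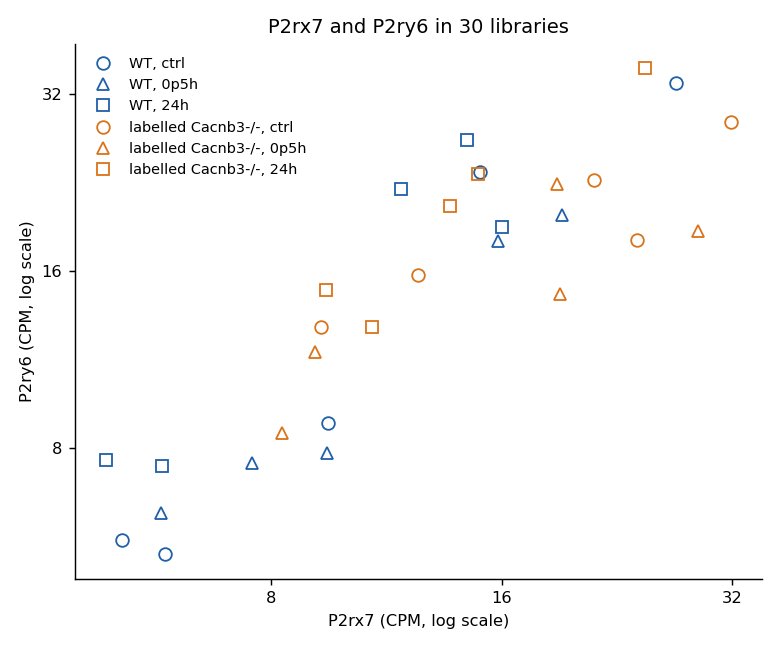
Each point is 1 of 30 libraries, *P2rx7* on the x axis and *P2ry6* on the y axis in CPM on log scales, with the genotype by colour and the set by shape. *P2rx7* runs from 4.88 to 31.9 CPM and *P2ry6* from 5.26 to 35.4 CPM, and libraries high in one are high in the other in each set (r = 0.88 over the 30 libraries, which share cultures).

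*P2rx4*, an ATP-gated channel found in lysosomes as well as at the surface, passed the test in no comparison of sets with the block alone. WT libraries held between 161 and 281 CPM, and those labelled *Cacnb3*-/- between 110.4 and 226 CPM. The WT set means were 194 ± 19.6, 199 ± 23.8 and 206 ± 47.4 CPM in ctrl, 0p5h and 24h (SD, n = 5), and the highest value was again 24h of culture p974s856. In cultures labelled *Cacnb3*-/- they were 165 ± 40.5, 169.9 ± 39.03 and 149.6 ± 44.2 CPM, and each of the 5 was higher in 0p5h than in ctrl, by at most 0.10 on the log2 scale, and lower in 24h than in 0p5h, by 0.04 to 0.33 on the log2 scale. The blocked log2 difference there was -0.19 (SE 0.08, adjusted p = 0.114), and it passed with the GC trend removed, at -0.22 (adjusted p = 0.0467), and without culture p974s865 (adjusted p = 0.048). Without each other culture it did not pass (adjusted p up to 0.304). Over the 30 libraries *P2rx4* went with the summed dendritic cell markers (r = 0.80). Their sum was 18391 to 29388 CPM in 0p5h and 13615 to 24323 CPM in 24h of these cultures. Single markers moved both ways with the block. *Cd74*, *H2-Ab1*, *Itgax* and *Ciita* fell (log2 fold changes -0.64, -0.63, -0.67 and -0.66), while *Flt3* and *Zbtb46* rose (0.73 and 0.31). The part of these markers was not tested.

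*P2rx5*, a further ATP-gated channel subunit, had the smallest ratio of highest to lowest value among the 9, with values from 40.9 to 83.4 CPM over all 30 libraries. Its blocked log2 differences between sets were -0.09 to 0.24, with adjusted p of 0.105 or more from edgeR. *P2ry2*, the Gq-coupled receptor for ATP and UTP, was at the low end of the 9, with 7 to 86 reads per library. It stood at 2.52 ± 0.955, 2.72 ± 0.622 and 2.44 ± 0.553 CPM in ctrl, 0p5h and 24h of WT and at 2.66 ± 1.12, 1.98 ± 0.933 and 1.80 ± 0.782 CPM in the other genotype. All 5 cultures labelled *Cacnb3*-/- were lower in 0p5h and in 24h than in ctrl, and the larger of these log2 differences, -0.55 (SE 0.39) from ctrl to 24h, had an adjusted p of 0.499 from edgeR without the block.

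Whether the sets moved the receptors differently in the genotypes was tested by the interaction of genotype and set. No receptor and no gene was called by edgeR in any of the 3 interactions (0%, 0% and 0% of genes at 2-fold, with 0, 1 and 1 of the 9 receptors and 0.223%, 4.86% and 5.88% of genes at an unadjusted p under 0.05). With the block and no fold minimum 0% of genes passed from ctrl to 0p5h, 0.118% from ctrl to 24h and 0.00745% from 0p5h to 24h, and 0 of 9 receptors. From 0p5h to 24h the change in cultures labelled *Cacnb3*-/- exceeded that in WT by 0.69 (SE 0.20) for *P2ry10*, 0.90 (SE 0.28) for *P2ry13* and 0.78 (SE 0.22) for *P2ry14* on the log2 scale, and in edgeR with the block the adjusted p was 0.108 for all 3. With DESeq2 and the block *P2ry10* and *P2ry14* passed, as did 3.1% of all genes tested. Without culture p974s865 all 3 passed in blocked edgeR (adjusted p = 0.0191, 0.0463 and 0.00537), with *P2ry14* at 1.04 past 2-fold, and 20.3% of all genes tested passed in that fit. Without each other culture none of the 3 passed (adjusted p up to 0.259). With the GC trend removed the 3 values were 0.20, 0.65 and 0.36, with adjusted p of 0.263 to 0.343.

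Between genotypes within a set, 0% of genes and 0 of 9 receptors were called in ctrl, in 0p5h and in 24h, with 0, 0 and 1 receptors and 16.6%, 16.4% and 38.4% of genes at an unadjusted p under 0.05 in edgeR. The count over all genes turned on the fit. In 24h it was 1129 without culture p974s865, 733 without p974s864, 606 with DESeq2, 615 with all 30 libraries in 1 fit and 376 with no filter on low counts. In ctrl it was 249 without p974s864 and 146 with DESeq2, and in 0p5h 83 with DESeq2. The receptors called stayed at 0 of 9 in these fits. *P2rx7* was higher in cultures labelled *Cacnb3*-/- by 0.69 (SE 0.46), 0.56 (SE 0.39) and 0.50 (SE 0.36) on the log2 scale in ctrl, 0p5h and 24h, and *P2rx4* lower by a difference of -0.22 (SE 0.16), -0.21 (SE 0.16) and -0.45 (SE 0.21). None of these 6 differences passed, the lowest adjusted p being 0.135 for *P2rx4* in 24h, and errors of this size leave differences of this size undecided. *P2ry10* in 24h differed by 0.72 (SE 0.22, adjusted p = 0.0541), and by 0.04 (adjusted p = 0.878) with the GC trend removed.

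The remaining P2 receptors were rare. *P2rx1*, *P2rx2*, *P2rx3*, *P2rx6* and *P2ry12*, the platelet ADP receptor, had group means of 0.0481 to 0.720 CPM, with at most 27 reads in a library, and *P2ry4* had at most 1 read. *P2ry10b* was the exception at 4.19 to 9.71 CPM. In WT it rose from ctrl to 0p5h by 0.49 on the log2 scale and fell from 0p5h to 24h by 0.81 (log2 fold changes 0.49 and -0.81, SE 0.11 and 0.20, adjusted p = 0.0247 and 0.0303 from edgeR with the block), whereas *P2ry10* had the values given above. Of 7 genes on this list 1 to 4 could be tested.

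Among genes around the P2Y receptors, *Adora2b* was called at 2-fold between sets without the block, and *Nt5e* and *Gnas* were past 2-fold and the adjusted p with it. Of 11 G alpha subunits 8 were tested and 0 called without the block. With the block 2 fell from 0p5h to 24h in WT, *Gna13* (log2 fold change -0.45) and *Gnaq* (-0.29). In cultures labelled *Cacnb3*-/- 3 fell and 1 rose from 0p5h to 24h, with *Gnas* at -1.05 (adjusted p = 0.00453), *Gnai2* at -0.39 and *Gnai3* at 0.48. Of all genes tested, 11.3% passed with the block from 0p5h to 24h in WT and 28.6% in cultures labelled *Cacnb3*-/-. Counts as small as those in this paragraph are not set apart from these shares. Over these steps from 0p5h to 24h the median log2 fold change of the subunits was -0.16 in WT and -0.24 in the other genotype, against 0.00 over all genes tested. Of 7 phospholipase C beta and IP3 receptor genes, 5 to 7 were tested and 0 called, with 1 passing the block alone, *Itpr3* (-0.49, adjusted p = 0.0263, from 0p5h to 24h in cultures labelled *Cacnb3*-/-). Of 9 genes for ATP release and its breakdown outside the cell 4 or 5 were tested and 0 called without the block, and with the block *Nt5e*, which makes adenosine from AMP, fell in WT from 0p5h to 24h (-1.39, adjusted p = 0.00047), and *Panx1*, an ATP-releasing channel, rose in cultures labelled *Cacnb3*-/- (0.32, adjusted p = 0.0195). Among 4 adenosine receptors, *Adora2b* was called, with 9.91 ± 2.57 CPM in 0p5h and 3.31 ± 0.723 CPM in 24h of WT (SD, n = 5; log2 fold change -1.57, adjusted p = 0.00356 from edgeR without the block). Of 6 kinase and arrestin genes for receptor desensitization 0 were called without the block, and with the block from 0p5h to 24h *Arrb1* (-0.29) and *Grk5* (-0.46) fell in WT, while *Arrb1* (-0.69) and *Grk2* (-0.45) fell and *Grk3* (0.42) rose in cultures labelled *Cacnb3*-/-.

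For each receptor the genes with the most similar pattern were sought by Pearson r of log2 CPM over the 30 libraries. *P2rx4* was most like *Tbc1d22a* (r = 0.95), *P2rx7* like *Slc36a1* (0.95) and *Tbxas1* (0.95), and *P2rx5* like *Cst6* and *Insl6* (0.71 each). *P2ry10* was most like *Samsn1* (0.95) and *Cytip* (0.95), *P2ry6* like *Cd300lb* and *Mpeg1* (0.91 each), and *P2ry14* like *Gpr155* (0.89) and *Pla2g4a* (0.89). *P2ry1* was most like *Resf1* (0.89) and *Mis12* (0.88), *P2ry2* like *Slc38a7* (0.89) and *Slc11a1* (0.86), and *P2ry13* like *Urb2* (0.73) and *Dnajc28* (0.72). These are among the highest of 13754 genes compared for each receptor, over libraries that share 10 cultures, and carry no test.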

How the data were processed

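Gene counts of 30 RNA-seq libraries were analysed as deposited. The authors aligned the reads with STAR 2.4 and counted them per gene with featureCounts 1.5.1 on Ensembl 79 exons (GRCm38 per the file headers, GRCm39 in the study's methods), without strand options. Symbols matched 39033 of 43629 identifiers. Library totals were 8237393 to 32164225 counts (median 19556920). The 9 receptors and all gene lists were chosen with earlier results of these data known. The receptors, other P2 receptors, *Cacnb3* and immediate early genes were named whatever their values, genes of other lists only where they passed (at most 3 per comparison), and 2 similar genes per receptor, of which 1 is not reported here.

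Genes kept by filterByExpr were tested in R 4.3.3 with edgeR 4.0.16 (TMM, quasi-likelihood, Benjamini-Hochberg), with libraries grouped by name. DESeq2 1.42.0, limma-voom (limma 3.58.1), other size factors and filters, each culture left out, a replicate block and removal of each library's lowess trend with GC content (span 0.3) were alternatives. They were tried on simulated data for some of the comparisons, except the fits with a culture left out and blocked DESeq2 and limma-voom. In the check of pairing, deviations from group means correlated at over 0.1 in 29 of 30 same-numbered pairs, the exception being ctrl and 24h of culture p974s843 (r = 0.0746). The labels do not say that a number marks 1 mouse, so p-values measure the spread between these samples.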

Additional observations from a re-analysis of the deposited data

Results flagged for a closer look

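For each of the 9 receptors the 5 libraries of each group were searched for 1 that stood far from the others (Dixon's ratio of gap to range over 0.71), 54 groups in all, of which chance flags about 1 in 20. *P2ry10* in the 0p5h library of culture p974s852, labelled *Cacnb3*-/-, stood at 456 CPM, against 198 to 220.5 CPM in the other 4 libraries of that group. *P2ry2* in the ctrl library of WT culture p974s864 stood at 4.19 CPM, against 1.80 to 2.29 CPM in the others.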

How the results depend on the processing

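At 2-fold and an adjusted p under 0.05, 0 of 9 receptors were called in all 12 comparisons under each alternative planned that kept the fold minimum; with the block and 1 culture left out, *P2ry13* from 0p5h to 24h without p974s843 and *P2ry14* in the interaction from 0p5h to 24h without p974s865 were past it. With the replicate block and no fold minimum, 1, 1 and 2 receptors passed in WT (ctrl to 0p5h, ctrl to 24h, 0p5h to 24h), and 0, 1 and 4 in cultures labelled *Cacnb3*-/-. The 1 from ctrl to 24h in the latter, where the pairing did not hold, was *P2ry10* (0.82, adjusted p = 0.00765 from edgeR; 0.47 and 0.0168 with the GC trend removed), and it was lost without culture p974s851 or p974s853. Leaving out cultures in the blocked fit, an alternative chosen after seeing the data, gave 0 to 0, 0 to 1 and 1 to 3 receptors in WT, 0 to 3, 0 to 1 and 2 to 6 in the other genotype, and 0 to 1 and 0 to 3 in the interactions to 24h from ctrl and from 0p5h. The share of all genes moved in the same fits, from 12.6% to 40.7% from 0p5h to 24h and up to 9.43% (without p974s843) from ctrl to 0p5h in cultures labelled *Cacnb3*-/-, and from 5.6% to 13.5% from 0p5h to 24h in WT. Also added after seeing the data, blocked DESeq2 passed 0 from ctrl to 0p5h in WT and 2 in the interaction from 0p5h to 24h, and from ctrl to 0p5h in cultures labelled *Cacnb3*-/- the GC trend removed passed 2 and limma-voom 1. With all cultures the block changed no call of a receptor at 2-fold. Reversed log2 differences were small: with the block and the GC trend removed 0.0096 (*P2ry10*, WT, 0p5h to 24h), and in cultures labelled *Cacnb3*-/- -0.12 (*P2ry13*) and -0.080 (*P2ry14*) from ctrl to 24h and -0.13 (*P2ry14*) from 0p5h to 24h; *P2ry14* from ctrl to 0p5h there was -0.021 with limma-voom and -0.0087 with the block. Without 1 culture, the ranges that crossed 0 were -0.027 to 0.086 (*P2ry14*, WT, ctrl to 0p5h), -0.079 to 0.37 (*P2ry6*, WT, ctrl to 24h), -0.12 to 0.072 (*P2ry10*) and -0.089 to 0.11 (*P2ry13*) in WT from 0p5h to 24h, and -0.021 to 0.11 (*P2ry14*, ctrl to 0p5h) and -0.064 to 0.28 (*P2ry13*, ctrl to 24h) in cultures labelled *Cacnb3*-/-. The cause was not tested. *P2ry2* and *P2ry13* had at most 86 and 105 reads in a library.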
